A study of Homo sapiens with 9 samples.

Results

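The accessible chromatin of parental K562 cells was described from 33367 regions that were among the strongest of each of 3 wild type libraries. K562 is an established human line from a chronic myeloid leukaemia in blast crisis that has features of early erythroid cells and can be driven towards erythroid or megakaryocytic differentiation. The wild type cells carry no mutation in STAG2, a subunit of cohesin. The remaining 6 libraries of the series, from 1 line heterozygous and 1 line homozygous for STAG2 R614*, enter no comparison here. The assay was ATAC-seq, where Tn5 transposase cuts and tags open DNA, on 50000 cells per replicate with single-end reads of 100 bp. In each library the peaks on chromosomes 1 to 22 and X were ranked by their −log10 p, the 50000 strongest were kept, and peaks of different libraries that overlapped by at least 1 bp were merged. This gave 67523 regions, of which 33367 (49.4%) held a peak of all 3 libraries, 14152 (21.0%) of 2 and 20004 (29.6%) of 1. The same merging over the 9 libraries of the whole series gave 106131 regions.

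Open chromatin lies mainly at promoters, where transcription begins, and at distal elements such as enhancers and insulators. In erythroid cells GATA1 binds DNA together with TAL1, LMO2 and LDB1, and KLF1 and NFE2 act at many of the same loci, among them the globin genes and the genes of haem synthesis and of the red cell membrane. Myeloid cells instead rely on SPI1 and the CEBP factors, and megakaryocytes on GATA1 with FLI1 and RUNX1.

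The 3 lists held 223184, 304073 and 287917 peaks in replicates 1, 2 and 3. Fold enrichment and p are the values of the authors' peak caller for each peak, and the files hold no read counts, so the depth is unknown and no test or interval was made. At the 50000th peak the −log10 p was 6.03, 6.44 and 6.41 and the fold enrichment 4.68, 4.9 and 4.88, and the first peak left out had the same −log10 p in each list. Replicates 1 and 2 had 23.2% of their intervals in common to the base, counted over the shorter list, and wild type replicate 3 had 46.0% in common with heterozygous replicate 1. The other 19 pairs that include a wild type list had 0.223% to 0.322% in common. The libraries of these 2 pairs may therefore not be independent, which bears on each SD with n = 3, and why they share intervals was not tested. Over the 33367 regions, the Spearman correlation of −log10 p was 0.835 between replicates 1 and 2, 0.579 between 1 and 3 and 0.585 between 2 and 3, given as a description since regions are not replicates. Without replicate 3 there were 42986 regions in both remaining libraries. The labels do not say that the replicates came from separate cultures, so the spread between them may be technical.

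Most of the regions lay away from promoters. A region was called a promoter where the midpoint of its strongest peak lay within 1 kb of a start site of a protein-coding transcript, and 9622 (28.8%) met this. A further 979 (2.93%) lay in exons, 9874 (29.6%) in introns and 12892 (38.6%) between genes. The 23745 distal regions had a median distance of 37334 bp to the nearest coding start, and 17.5% of all regions lay over 100 kb from one. Without replicate 3 the promoter share was 24.5%. Of the 50000 strongest peaks of a single library, promoters made up 22.8% ± 0.208 (SD, n = 3).

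Promoter and distal regions differed in base composition and width more than in fold enrichment. In the 200 bp around the peak midpoint the median GC content was 67.0% at promoters and 50.0% at distal regions. The median ratio of observed to expected CpG was 0.834 and 0.246. Median widths were 1289 bp and 747 bp. The median fold enrichment of promoter regions was 6.61, 6.6 and 6.61 in replicates 1, 2 and 3, and that of distal regions 6.54, 6.69 and 6.71. By −log10 p, promoters stood higher, with median ranks of 13911.5, 14046.5 and 14080.5 against 19552, 19496 and 19972.

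Regions were put in order of strength by their lowest percentile over the 3 lists, so that a region is as strong as in its weakest library. The top of this order was neither promoters nor blood cell loci. Of the 15 strongest regions 14 were distal, 7 held a tandem repeat of at least 20 bp in the 200 bp around the midpoint, and 4 had a sequence found at 2 or more places in the genome (at least 3 of 5 sampled 32-mers). Over all regions these shares were 2.31% for tandem repeats and 9.33% for repeated sequence. Both are stated as measured beside the ranks, and their part in the ranks was not tested.

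Of the 15 strongest, 4 are printed to show the tandem repeats and small RNA copies among them, as 120 bases of the plus strand of GRCh37 centred on the peak midpoint. Capitals mark tandem repeats of at least 20 bp in the regions of the NGB intron and near SEZ6L, and the bases of an annotated small RNA gene copy in those of the BTRC intron and at RNA5SP202.
NGB intron, chr14:77736077-77736196: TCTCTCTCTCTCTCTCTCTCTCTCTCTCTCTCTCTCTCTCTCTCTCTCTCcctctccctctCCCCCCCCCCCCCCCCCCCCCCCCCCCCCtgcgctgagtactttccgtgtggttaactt
near SEZ6L, chr22:26496132-26496251: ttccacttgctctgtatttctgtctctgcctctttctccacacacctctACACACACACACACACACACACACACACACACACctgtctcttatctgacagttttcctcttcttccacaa
BTRC intron, chr10:103124554-103124673: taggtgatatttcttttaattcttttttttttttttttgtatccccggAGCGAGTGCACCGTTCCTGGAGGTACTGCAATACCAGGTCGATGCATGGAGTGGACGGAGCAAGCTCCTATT
RNA5SP202, chr6:4428225-4428344: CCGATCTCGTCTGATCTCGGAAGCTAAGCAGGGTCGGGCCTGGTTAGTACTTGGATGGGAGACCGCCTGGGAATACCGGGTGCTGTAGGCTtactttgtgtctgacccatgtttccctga

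The second region, at chr14:77735886-77736386 in an intron of NGB, which encodes neuroglobin, had ranks 2, 4 and 3 and fold enrichment of 34.1, 33.9 and 35.3, and 119 of its central 200 bp were tandem repeat. The third, at chr22:26495942-26496441, lay 69236 bp from the nearest coding start, that of SEZ6L. These intervals were 501 and 500 bp wide and had a single summit in each library.

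Annotated small RNA copies lay under others of this group. The BTRC region, at chr10:103124364-103124869, overlapped RNU2-59P, annotated as an snRNA gene, and had ranks 5, 5 and 12. The region at chr6:4428032-4428534 overlapped RNA5SP202, a ribosomal RNA pseudogene, with ranks 16, 16 and 19 and fold enrichment of 28.2, 28.4 and 27.4. The last of the 15, near TLE4, lay over the mitochondrial pseudogene MTND2P9. LINC00486, a long non-coding RNA gene on chromosome 2, carried the region with the highest GC content of the group, at 96.5%, with 174 of 200 bp in tandem repeat and a width of 799 bp.

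Others of the 15 were at FOXL3, near FUNDC1, in an intron of MAN1A1, near NOL4L, near ACTR3C, in CPA6 and in RASGEF1C. Of these, the regions near NOL4L, in CPA6 and in RASGEF1C held neither a tandem repeat nor repeated sequence by the rules above. The lone promoter was that of KIAA1217, seventh in the order, with fold enrichment of 29.1, 28.0 and 28.8. The 10 strongest distal regions were all among the 15. No gene of the blood cell lists described below was the nearest gene to any of the 15.

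Below the first 100 regions the share of promoters was higher. It was 17.0% in places 1 to 100, 42.3% in places 101 to 1000, 44.5% in places 1001 to 5000, 38.4% in places 5001 to 10000, 29.2% in places 10001 to 20000 and 19.5% in the remaining 13367. Tandem repeats were found in 13.0% of the first 100 and in 2.0% to 2.78% of each later group. After KIAA1217 the strongest promoters, picked out after their values were seen, were those of PEX5L, PNPLA6, CDC14A, SLC35F2, KYAT3, TSN, PDE11A, INTS4 and MOSPD2, all within the first 66 places. The order depends on the measure used: of the 1000 strongest regions 39.8% were promoters by −log10 p and 15% when ranked by fold enrichment. Without replicate 3 the share by −log10 p was 36.7%.

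**Figure D1:**
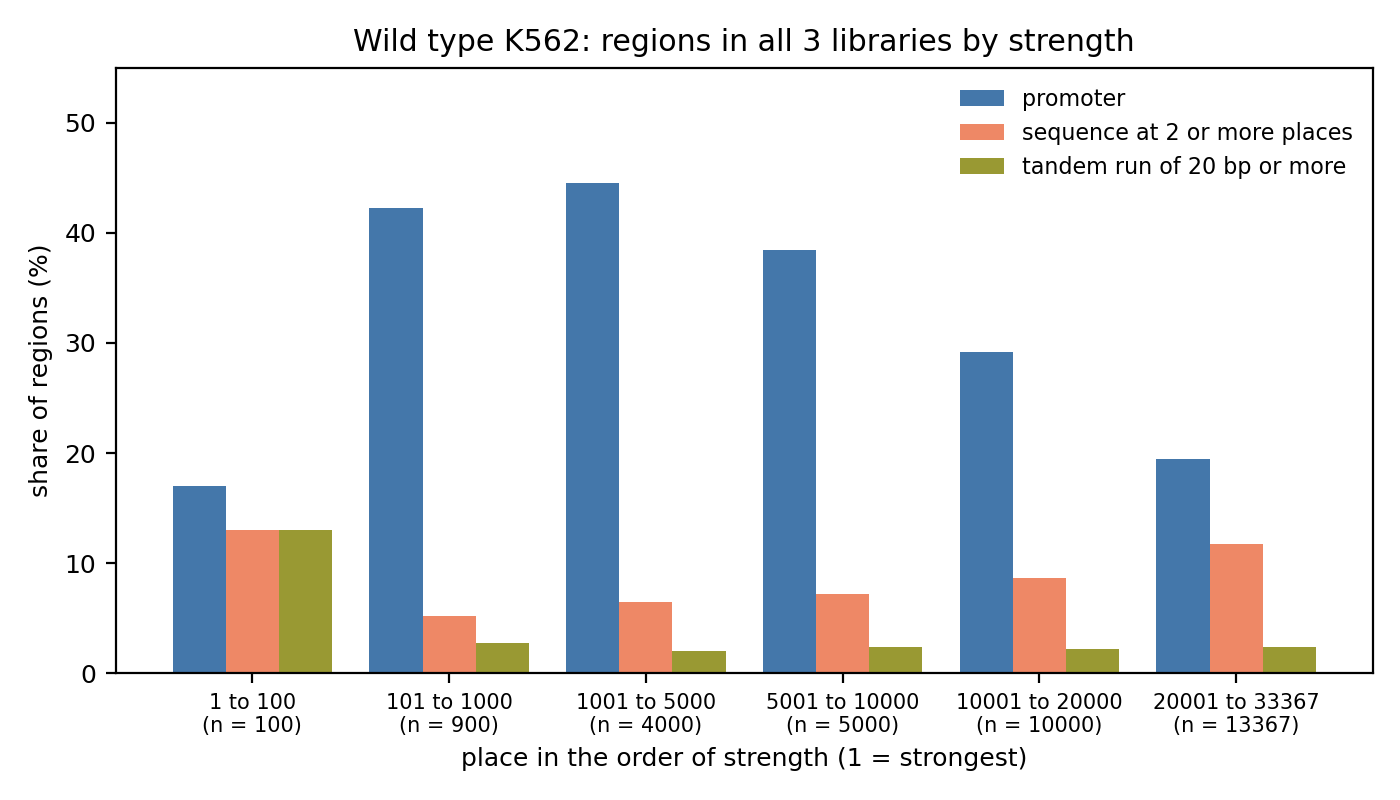
Share of the 33367 regions (vertical axis, %) that were promoters (blue), had sequence at 2 or more places in the genome (orange) or held a tandem repeat of at least 20 bp (olive), by place in the order of strength (horizontal axis). The promoter share was 17.0% in the first 100 places, 44.5% in places 1001 to 5000 and 19.5% in the last group.

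The widest regions were a different set from the strongest. Widths ran from 500 to 4177 bp with a median of 849 bp, and 636 bp without replicate 3. The promoter share went from 7.86% of regions of 500 to 750 bp to 84.1% of those over 2000 and up to 2500 bp. Of the 100 widest, 87 were promoters, their median place in the order of strength was 11665 and the strongest of them stood at 817. Median fold enrichment went from 6.66, 6.76 and 6.95 in the narrowest group to 5.0, 4.61 and 4.69 in the 136 regions over 2500 bp. The median −log10 p, the measure of strength, went the other way, from 10.1, 11.3 and 11.5 to 12.4, 12.3 and 13.0, and the median place in the order from 18985.5 to 12403. A peak that joins several 500 bp windows carries the mean of their values in the files, so the fold of such a peak is not that of its summit. This does not hold for every wide region, since in replicate 3 the best peak of the widest region had 1 summit.

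The widest region, of 4177 bp at chr2:157188266-157192442, covered NR4A2, an immediate-early nuclear receptor gene. Its ranks were 19333, 25493 and 19279 and its fold enrichment 3.53, 3.24 and 3.43, and its strongest peak was centred in an intron, 2919 bp from the nearest coding start. The other 9 of the 10 widest were promoters. They were those of FBXO30, of ETV1, which encodes an ETS factor, of PHF10, a chromatin remodelling subunit gene, of QKI, an RNA-binding protein gene, of L3MBTL3, of the glucocorticoid receptor gene NR3C1, of GULP1, of PPARGC1B and of NMI. Over these 10 regions and the 3 libraries the ranks ran from 3768 to 46120.

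**Figure D2:**
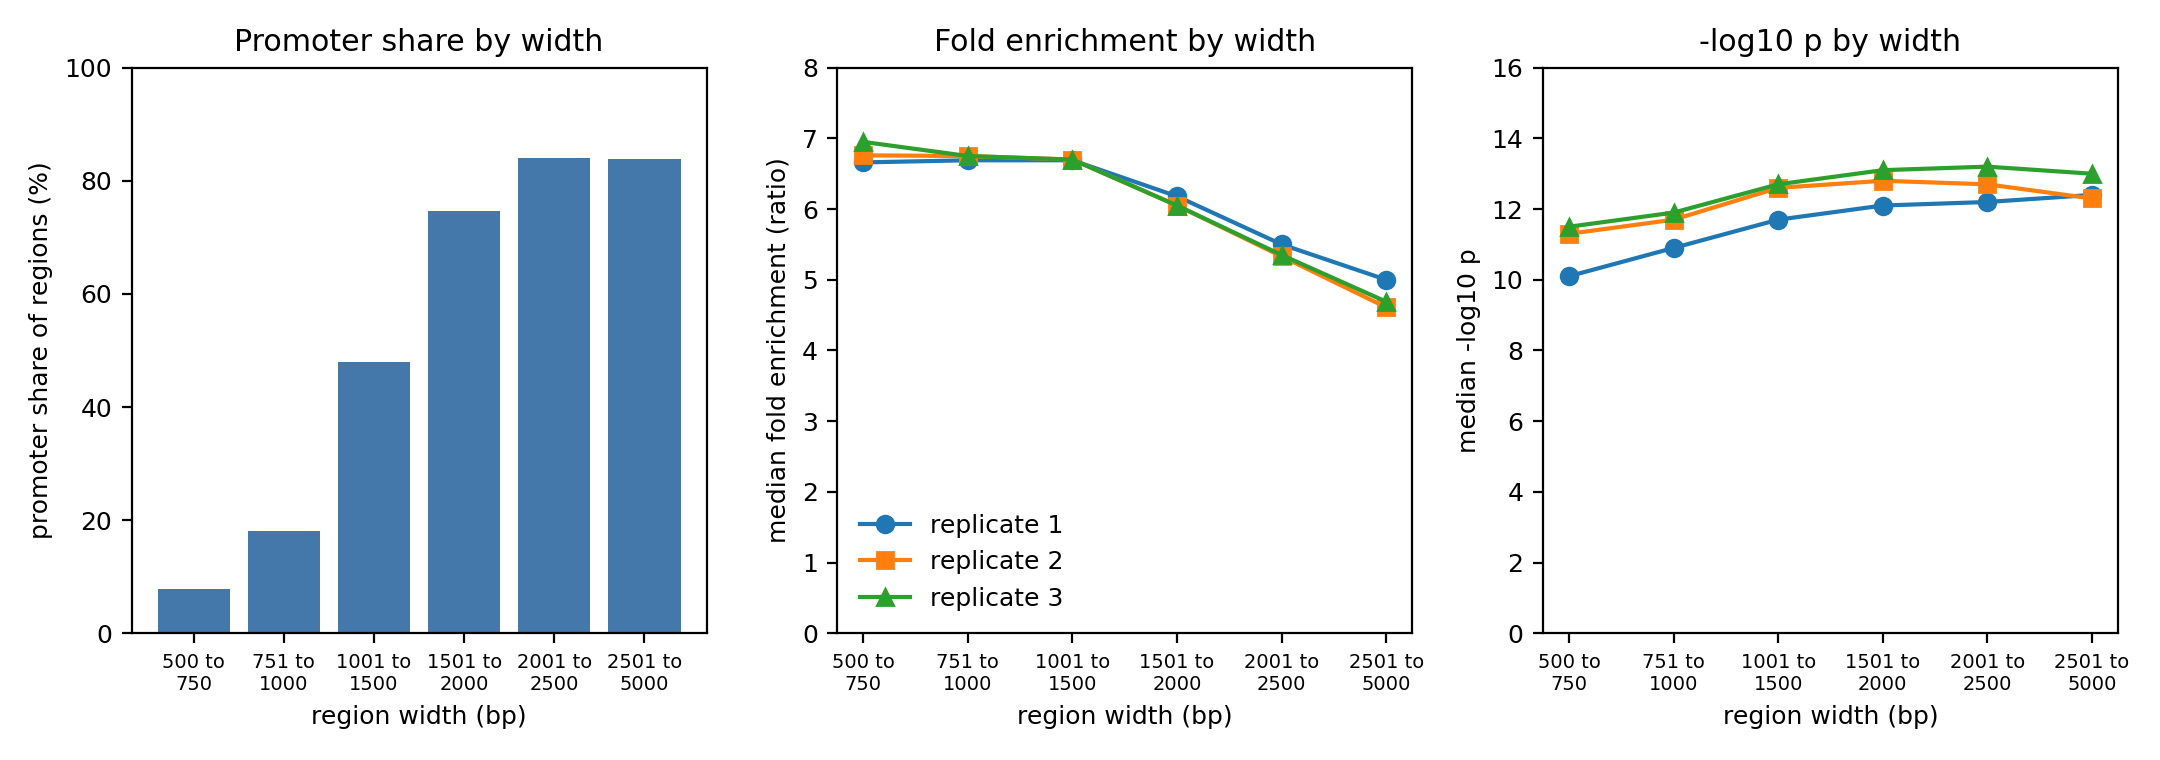
Promoter share (left, %), median fold enrichment (middle) and median −log10 p (right) in each wild type library (lines with circles, squares and triangles for replicates 1, 2 and 3) by region width in bp. The promoter share was 7.86% in the narrowest group and 84.1% over 2000 to 2500 bp, while in replicate 1 the median fold was 6.66 and 5.5 and the median −log10 p 10.1 and 12.2.

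Short sequences bound by known factors were counted around the peak midpoints of distal regions. Windows of 100 bp to each side of the midpoint were taken at regions whose best peak had a single summit. This held for 13094, 12117 and 11485 distal regions in replicates 1, 2 and 3. The same number of bases 2 kb downstream on the plus strand, whatever the strand of the gene, and free of any peak, served as background. It was not matched to the regions in base composition, and the part of this in the differences from background was not tested. Both strands were searched, a match is not a binding site, and the SD is small because the 3 libraries share the regions. The CTCF letters (CCA, any 2 bases, AG, any 2 bases, GGC), of the insulator protein that works with cohesin, were in 12.4% ± 0.516 (SD, n = 3) of distal windows and in 0.499% of background windows. TGANTCA, the letters of AP-1 factors, were in 15.2% ± 0.344 against 6.04%. The longer NFE2 letters, TGC directly before TGAGTCA, overlap those of AP-1 and were in 0.948% ± 0.0793 against 0.0719%.

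For GATA factors the short letters stood near the background and a longer composite above it. The short letters AGATAA or TGATAA were in 25.4% ± 0.381 of distal windows and in 23.3% of background windows. The composite of TAL1 and GATA1, CTG and GATAA separated by 9 bases, was in 2.93% ± 0.0531 against 0.597%, which is 4.91 times the background. With 250 bp to each side it was 2.45 times, CTCF went from 24.8 to 11.4 times and AP-1 from 2.51 to 1.56 times. Among the other motifs at distal windows, CCGGAAG of ETS factors was at 1.84% against 0.448%, GGGGCGGGG of SP1 at 1.75% against 0.292% and TGTGGTT of RUNX factors at 6.21% against 3.58%. CCACACCC of KLF factors was at 3.25% against 1.77%. GAGGAAGT of SPI1 was at 1.98% against 0.99%, whereas TTGCNNCAA of CEBP factors, at 1.66% against 2.09%, and CATTCCA of TEAD factors, at 2.99% against 3.81%, were below the background.

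The share of some motifs followed the strength of the distal regions. From the 1000 strongest regions to those past place 20000, the GATA letters went from 32.2% ± 0.736 to 24.4% ± 0.491 of windows (SD, n = 3). The composite went from 4.53% ± 0.327 to 2.34% ± 0.1, and AP-1 from 22.7% ± 0.671 to 14.1% ± 0.243. CTCF went the other way, from 6.97% ± 0.536 to 12.3% ± 0.592. The libraries share these regions and their order, so the SDs are no independent check of these differences.

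Promoter windows had another set of motifs. GGGGCGGGG of SP1 was in 20.4% ± 0.344 (SD, n = 3) of them, against 0.485% in the background and 16.3% at all protein-coding starts. CCAATCA of NFY was in 10.2% ± 0.728 against 1.39% and 5.78%, and CCGGAAG of ETS factors in 9.93% ± 0.287 against 0.538% and 10.3%. The CTCF letters were in 5.88% ± 0.286, against 0.577% in the background and 1.8% at all starts. The GATA letters were in 9.18% ± 1.18 of promoter windows, below the 17.2% of the background and above the 6.91% of all starts. These windows cover 11.0% to 15.3% of the promoter regions, since most promoter peaks join several summits.

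The CTCF, composite and NFE2 letters are each shown in 1 region. These are the strongest distal regions with a match whose sequence occurs once in the genome, chosen after their values were seen, and 200 bases of the plus strand of GRCh37 are given with the match in capitals.
CTCF, intergenic, chr10:86425770-86425969: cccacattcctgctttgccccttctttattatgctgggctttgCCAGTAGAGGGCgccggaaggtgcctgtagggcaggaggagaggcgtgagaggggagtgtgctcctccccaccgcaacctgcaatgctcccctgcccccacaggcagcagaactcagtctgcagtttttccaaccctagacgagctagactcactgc
TAL1 and GATA1 composite, HMCN1 intron, chr1:186081544-186081743: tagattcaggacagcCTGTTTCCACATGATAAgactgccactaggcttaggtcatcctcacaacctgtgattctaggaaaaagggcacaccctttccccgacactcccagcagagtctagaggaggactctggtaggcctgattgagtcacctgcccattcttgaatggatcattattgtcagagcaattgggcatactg
NFE2, ARHGAP42 intron, chr11:100734026-100734225: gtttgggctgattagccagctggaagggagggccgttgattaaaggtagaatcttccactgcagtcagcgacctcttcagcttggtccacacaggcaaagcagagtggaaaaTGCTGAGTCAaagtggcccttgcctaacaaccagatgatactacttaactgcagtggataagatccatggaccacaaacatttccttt
They stood at places 56, 48 and 731 in the order of strength.

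**Figure D3:**
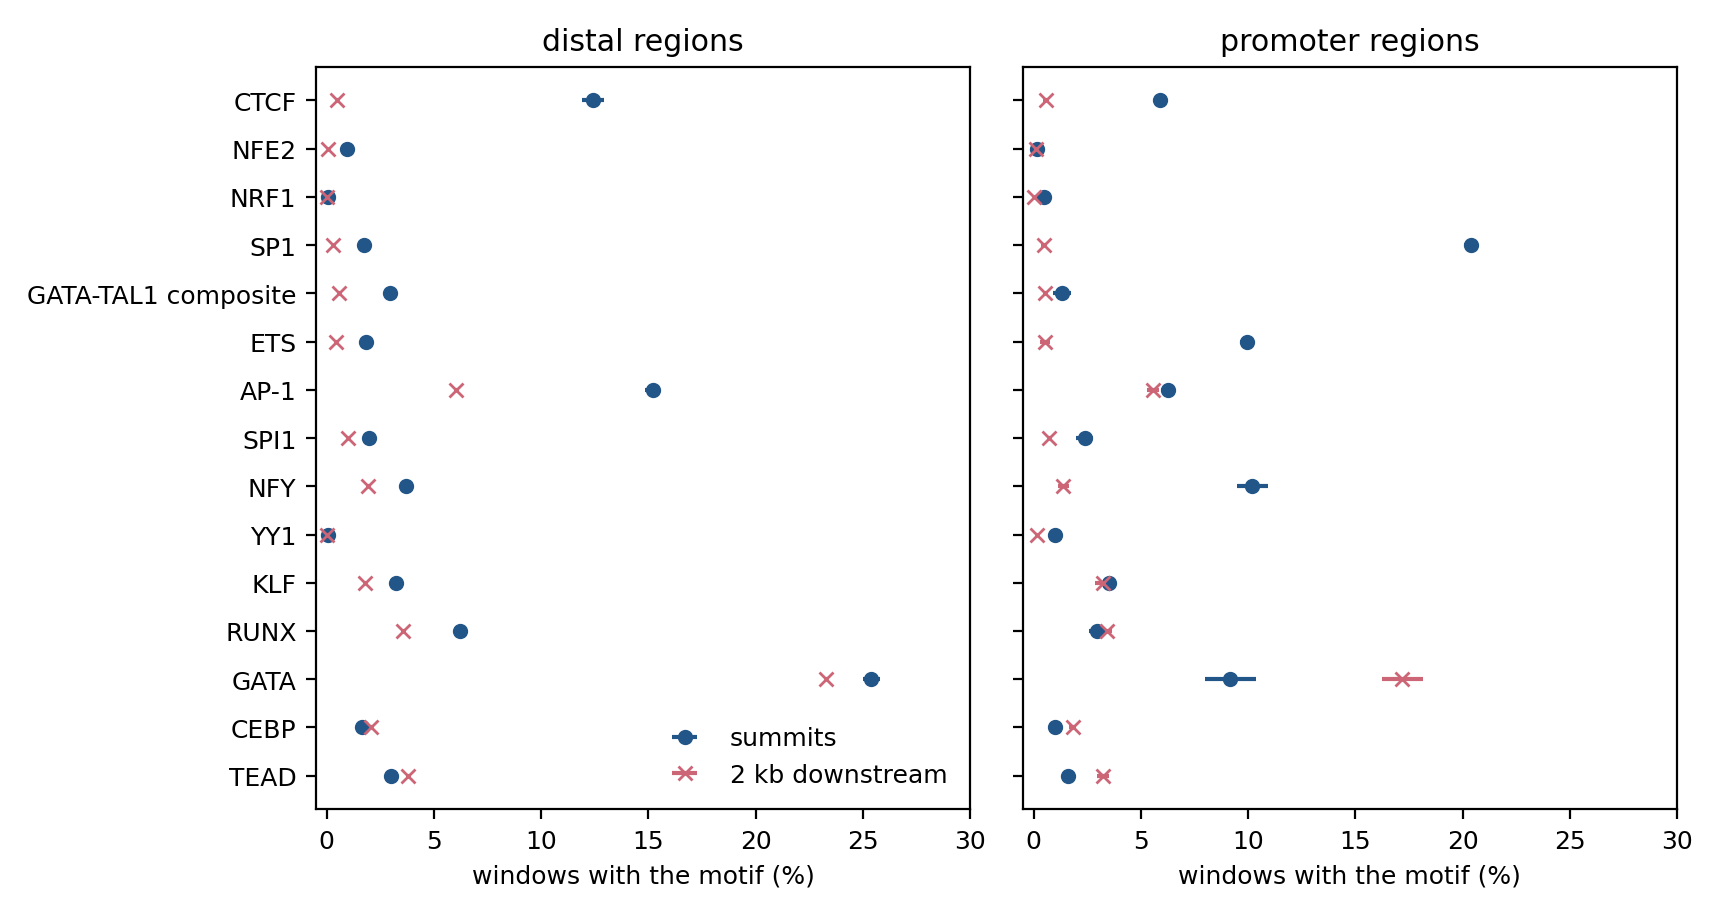
Share of 200 bp windows that hold each motif (horizontal axis, %) in distal (left) and promoter (right) regions. Circles, labelled summits, are windows around the midpoints of peaks with a single summit. Crosses are windows 2 kb downstream on the plus strand. Points are means and bars the SD over the 3 wild type libraries. CTCF at distal regions (12.4% against 0.499%) and SP1 at promoters (20.4% against 0.485%) stand farthest from their background.

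Start sites were examined next. Of 19756 protein-coding genes, 10417 (52.7%) had a region within 1 kb of a coding start, called open here, 3580 (18.1%) had no peak of any of the 3 full lists there, and 14485 (73.3%) had a region anywhere from 10 kb before to 10 kb after the gene. The shares of 9 lists, of 194 genes, are read against these values. Of 22 housekeeping genes 18 (81.8%) were open and none lacked a peak. The glycolytic enzyme gene PGK1 was the strongest of them, at place 368, and LDHA and TBP were also among the strongest 4. GAPDH, POLR2A, ALDOA and CHMP2A had a start peak among the 50000 strongest in some libraries and no region in all 3, so widely used genes were also among those not called open.

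**Figure D4:**
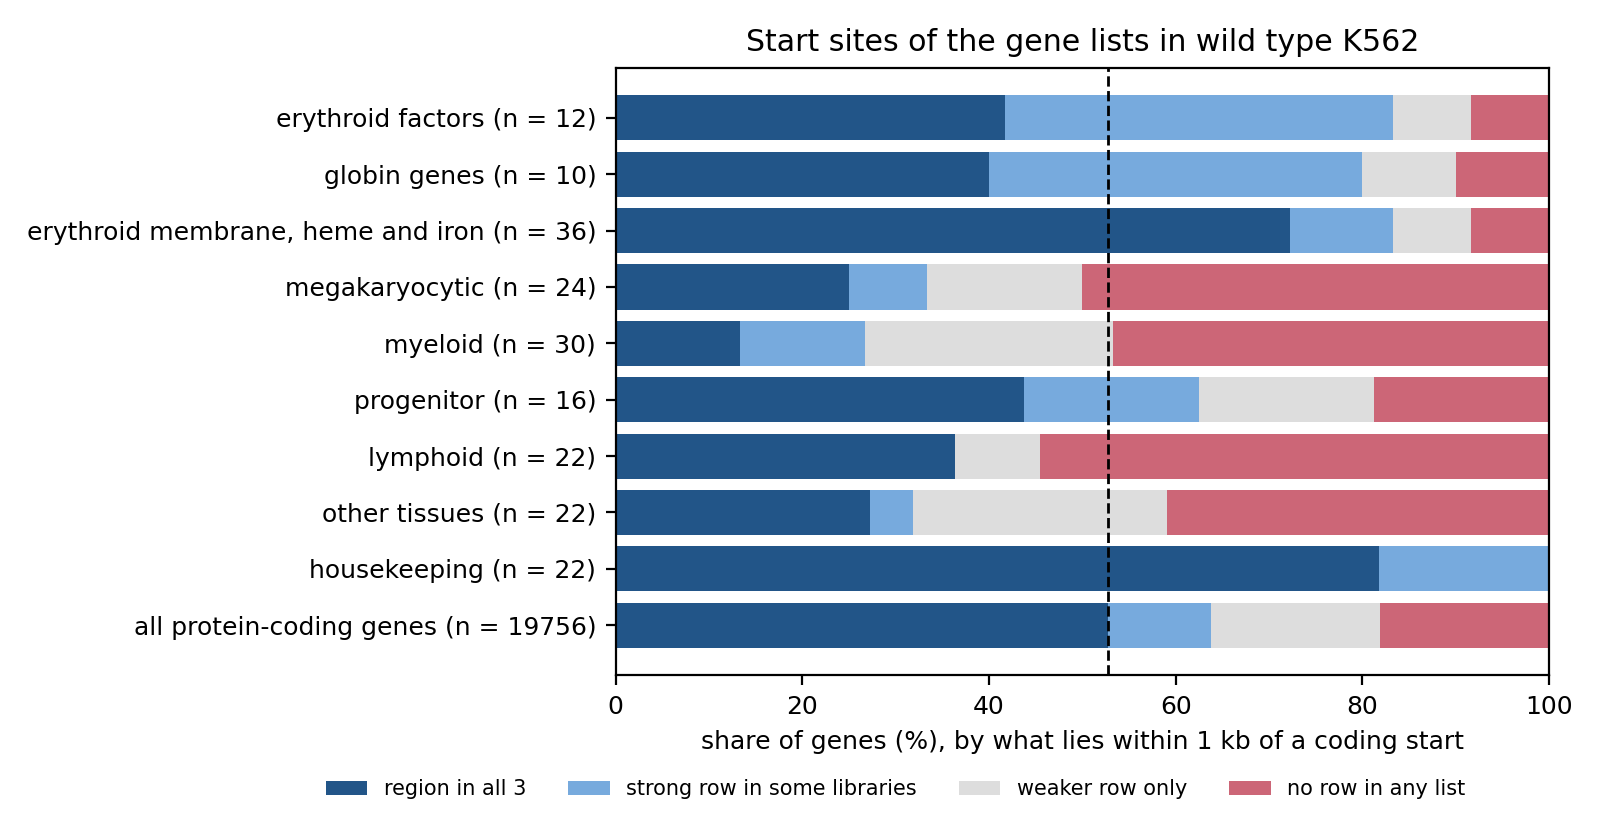
Share of the genes of each list (horizontal axis, %) with a region in all 3 libraries at a start (dark blue), a peak among the 50000 strongest of some libraries (light blue), a weaker peak (grey) or no peak (red); the dashed line is the 52.7% of all protein-coding genes. The erythroid membrane, haem and iron genes (72.2%) and the housekeeping genes (81.8%) lie above the line, the other 7 lists below it under this rule; the erythroid factors and globin genes lie above or below by library and by the number of peaks kept.

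The list of erythroid membrane, haem and iron genes had the highest open share of the blood lists, 26 of 36 (72.2%), with 3 lacking any peak. The strongest were ALAD and CPOX, of haem synthesis, RHAG, of the Rh membrane complex, and CA1, a red cell carbonic anhydrase. The ALAD start had ranks 2617, 678 and 746. RHAG had 2033, 2239 and 3452, CPOX 2083, 4600 and 2818, and CA1 3031, 388 and 5469. All 4 starts thus stood at rank 5469 or above in every library, and of the 4 CA1 varied most between libraries. For RHCE, also counted as open, the coding start nearest to the region was that of its neighbour MACO1.

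The genes of this list with no start peak were ALAS2, SLC4A1 and TRIM10. ALAS2, the erythroid enzyme of the first step of haem synthesis, had a region in an intron instead, at chrX:55054336-55054951, 2737 bp into the gene. Its ranks were 4116, 2215 and 10266 and its fold enrichment 10.7, 12.1 and 8.95. SLC4A1, the gene of the band 3 anion exchanger, had a region 1302 bp downstream of its start with ranks 17337, 12579 and 17073. TRIM10 had no region within 10 kb.

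Of the 12 erythroid transcription factor genes 5 were open, ZFPM1, TAL1, KLF3, NFE2 and GFI1B, and 10 had a region in the body or within 10 kb. The region that made GFI1B open lay at the start of its neighbour TSC1. Counted by library, 8, 10 and 7 of the 12 (66.7%, 83.3% and 58.3%) had a start peak among the 50000 strongest, beside 58.1%, 58.3% and 58.8% of all coding genes. Without replicate 3 the number open was 8 of 12, beside 11008 of all 19756 genes, and with 100000 peaks 10 of 12, beside 12476, so this list stood below the share of all genes or above it by the rule used. TAL1, a bHLH factor of early blood development, had a 1597 bp region at its start, chr1:47696815-47698411, with ranks 11752, 11586 and 10200 and fold enrichment of 5.35, 5.19 and 5.5. Its ranks spread less over the libraries than those of the other 4 open genes of this list. ZFPM1, which encodes the GATA1 cofactor FOG1, was stronger, with ranks 3864, 6903 and 11204. NFE2 had ranks 23402, 17913 and 8596 at its start and a stronger region 3479 bp upstream, in an intron of COPZ1, with ranks 6787, 11775 and 7068.

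GATA1, the central erythroid factor, was not open at its start by this rule. Its start peaks stood at ranks 105140, 89034 and 113332, with fold enrichment of 3.41, 3.69 and 3.59, outside the 50000 strongest in every library. A region 3487 bp upstream, chrX:48641211-48641711, had ranks 18533, 16425 and 18524 and fold enrichment of 7.06, 7.64 and 7.43. KLF1 had no start peak in any list, and the region nearest to it, 3748 bp upstream, lay on the start of GCDH. LYL1, LDB1, CBFA2T3 and E2F2 had a start peak among the 50000 strongest in some of the libraries. LMO2 had one in each, at ranks 41141, 43532 and 21295, but no merged region shared by the 3 libraries at a start.

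**Figure D5:**
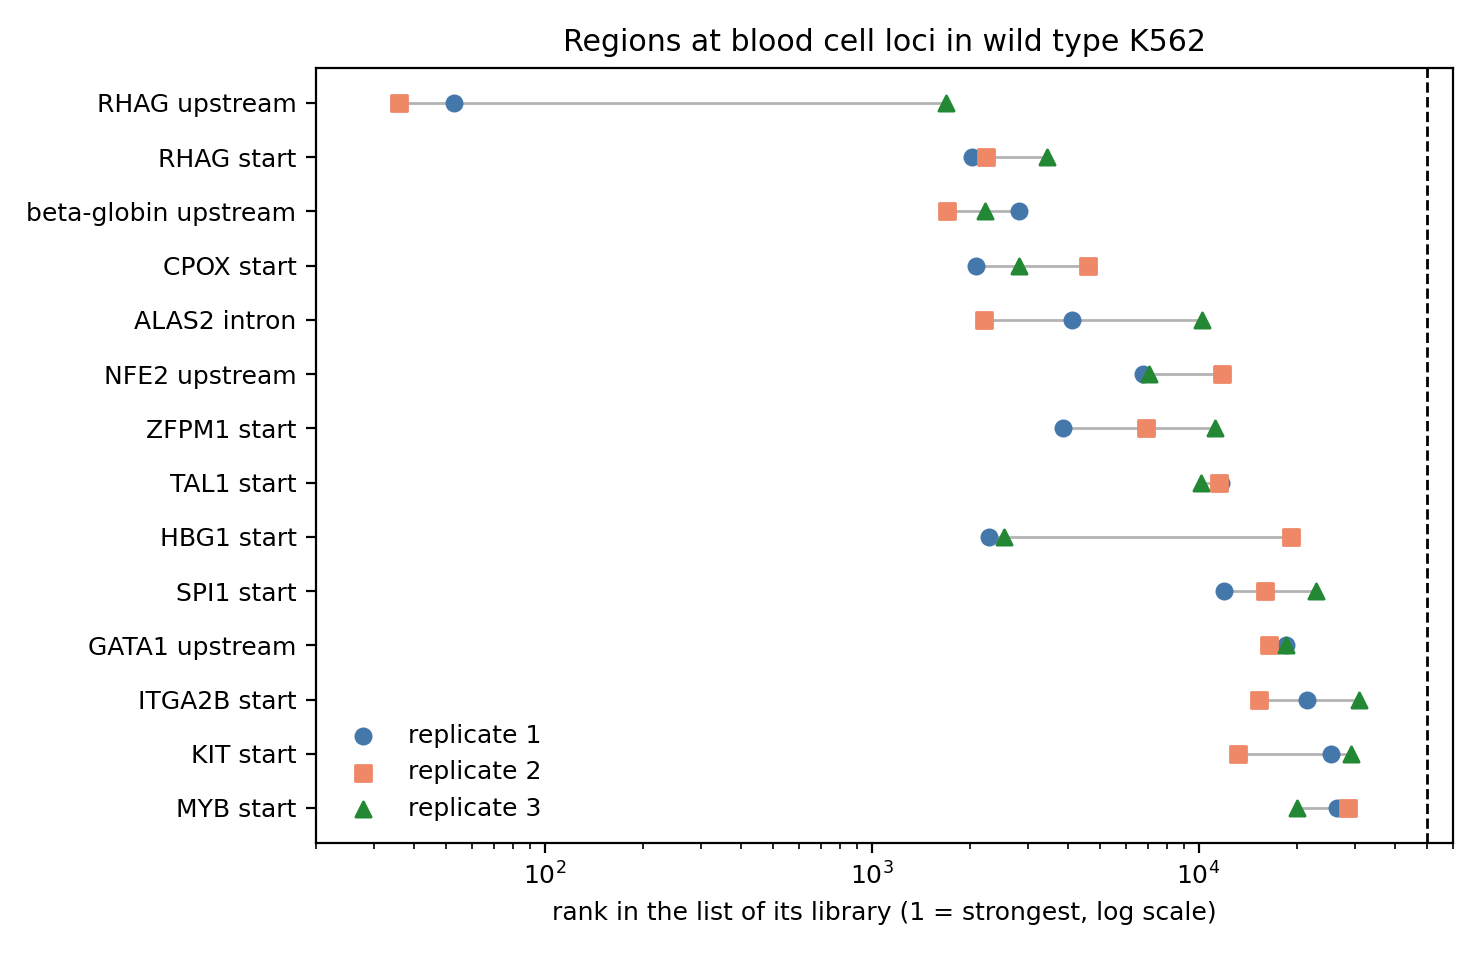
Rank of the peak of each wild type library (circles, squares and triangles for replicates 1, 2 and 3; log scale, 1 is the strongest) in regions at blood cell loci, in order of strength; the dashed line marks rank 50000. The RHAG upstream region lies at ranks 53, 36 and 1693, the TAL1 start between 10200 and 11752, and the regions at GATA1, ITGA2B, KIT and MYB at rank 13234 or beyond.

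In the beta-globin cluster HBG1, HBG2, HBE1 and HBD were open and HBB was not, and a region was present upstream of the cluster. The start of HBG1, a fetal gamma-globin gene, had a region at chr11:5270671-5271706 with ranks 2279, 19208 and 2536 and fold enrichment of 9.62, 5.35 and 9.04. HBG2 had ranks 23930, 15430 and 1339. The 2 genes are near-identical copies, so reads could be placed at either and their separate values are uncertain. HBE1, the embryonic gene, had start ranks of 29151, 32595 and 15012 and HBD 19245, 25213 and 10444, while HBB, the adult gene, had no start peak in any list. Of the 10 globin genes 4 were open, and of the alpha-globin cluster HBA1, HBM, HBQ1 and HBZ had start peaks in the 50000 strongest of some libraries, none in all 3. By library 6, 6 and 7 of the 10 globin genes had a start peak among the 50000 strongest. With 100000 peaks 9 of 10 were open, beside 12476 of all 19756 coding genes. This list too thus stood below or above all genes by the rule used.

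By the order of strength, the strongest region of the beta-globin cluster lay 30863 bp upstream of HBG1, at chr11:5301688-5302477. It is within the locus control region, the distal enhancer of the cluster. Its ranks were 2821, 1707 and 2218 and its fold enrichment 9.33, 9.98 and 8.87, stronger in every library than HBD or HBE1. The HBG1 start ranked above it in replicate 1, at 2279, and the HBG2 start in replicate 3, at 1339. Further regions of the same stretch had midpoints 25986, 34902 and 38389 bp upstream of HBG1, at places 10981, 18769 and 3959. An annotated transcript of HBE1 spans this stretch, so the annotation places them in an intron.

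Of the distal regions at erythroid genes, 4 are printed to show these letters in place, as 200 bases of the plus strand of GRCh37 around the peak midpoint, with the GATA and AP-1 letters on either strand in capitals. The GATA1 and beta-globin regions are at marker genes of the cell type, and the RHAG and ALAS2 regions were picked after their values were seen.
beta-globin upstream, chr11:5301850-5302049: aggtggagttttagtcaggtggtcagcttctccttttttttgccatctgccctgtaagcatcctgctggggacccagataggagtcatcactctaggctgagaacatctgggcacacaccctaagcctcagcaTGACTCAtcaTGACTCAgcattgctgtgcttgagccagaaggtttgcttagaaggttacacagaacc
RHAG upstream, chr6:49614091-49614290: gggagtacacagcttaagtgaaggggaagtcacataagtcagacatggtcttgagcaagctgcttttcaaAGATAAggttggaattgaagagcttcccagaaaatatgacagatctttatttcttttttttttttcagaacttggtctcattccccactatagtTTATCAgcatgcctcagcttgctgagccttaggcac
ALAS2 intron, chrX:55054572-55054771: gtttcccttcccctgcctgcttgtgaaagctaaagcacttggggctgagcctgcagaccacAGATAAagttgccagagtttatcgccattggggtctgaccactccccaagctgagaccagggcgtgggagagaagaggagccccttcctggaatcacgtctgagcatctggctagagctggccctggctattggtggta
GATA1 upstream, chrX:48641361-48641560: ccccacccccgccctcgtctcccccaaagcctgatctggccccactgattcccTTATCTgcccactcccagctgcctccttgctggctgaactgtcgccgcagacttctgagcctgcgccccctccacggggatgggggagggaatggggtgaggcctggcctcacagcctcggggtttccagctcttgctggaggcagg
The beta-globin sequence holds 2 matches to TGANTCA, the RHAG sequence 2 GATA matches, and the ALAS2 and GATA1 sequences 1 GATA match each. The RHAG region, 9639 bp upstream of the gene at chr6:49613291-49614763, had the best rank of the 4 in each library, at 53, 36 and 1693, and fold enrichment of 16.6, 16.7 and 8.23. Replicate 3 stood apart from the other 2 libraries there, and in it the fold was below those of the beta-globin and ALAS2 regions.

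Of 24 megakaryocytic genes 6 (25.0%) were open, beside 52.7% of all coding genes, and 12 (50.0%) had no start peak, beside 18.1%. The 4 strongest were NBEAL2, a gene of platelet granule formation, at ranks 6006, 2212 and 2496, then PEAR1, a platelet receptor gene, MMRN1, which encodes multimerin, and ITGA2B, the integrin subunit of the platelet fibrinogen receptor. ITGA2B had ranks 21533, 15261 and 30943. CLEC1B, GP1BA, GP9 and LY6G6F were among the 12 with no start peak.

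Regions away from the starts were more widespread, and 17 of the 24 megakaryocytic genes (70.8%) had a region in the body or within 10 kb, close to the 73.3% of all genes. FLI1, an ETS factor of megakaryocytes, had an intron region 63359 bp from its start with ranks 2378, 2497 and 9213, and was picked out after its values were seen.

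Of 30 myeloid genes 4 (13.3%) were open, the lowest share of the 9 lists under this rule, and 14 (46.7%) had no start peak, and 13 (43.3%) had a region in the body or within 10 kb. By library 4, 8 and 6 of the 30 had a start peak among the 50000 strongest, and in replicate 2 the share of 26.7% was above the 22.7% of the genes of other tissues. The number open was 1 of 30 with 20000 peaks per list and 12 with the full lists. Of all 19756 coding genes these settings left 5541 and 14085 open. The 4 open myeloid genes under the main rule were KLF4, the master myeloid factor gene SPI1, GFI1 and LYZ, which encodes lysozyme. KLF4 had ranks 9771, 3397 and 3891 and SPI1 had 11966, 15969 and 22806, whereas GFI1 had 27092, 35037 and 34748 and LYZ 28521, 30674 and 32123. CD14, CEBPE, CTSG and CYBB, of monocytes and granulocytes, had no start peak. CSF1R, the macrophage growth factor receptor gene, had weak start peaks and was picked out after its values were seen. A region past the end of this gene, within 10 kb of it and 36009 bp downstream of a start, had ranks 3472, 4596 and 2645.

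Of 16 progenitor genes 7 (43.8%) were open. The strongest were HLF, at ranks 3833, 3077 and 7268, and MECOM, which encodes EVI1, followed by the stem cell factor receptor gene KIT and by MYB. MECOM had 13 regions in its body or within 10 kb. KIT had ranks 25352, 13234 and 29240 and MYB 26438, 28558 and 19988, in the lower part of the 50000 in 2 or more of the libraries. ERG, FLT3 and CRHBP had no start peak. GATA2, at ranks 25498, 56405 and 84560, passed in replicate 1 alone.

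Lymphoid and other lineage genes served as comparison lists. Of 22 lymphoid genes 8 (36.4%) were open, and some of these were strong: EBF1, a B cell factor, stood at place 266, RAG2 at 360, GATA3 at 1496 and RAG1 at 3214. The regions that made RAG2 and RAG1 open lay at the starts of their neighbours IFTAP and TRAF6. The EBF1 start had ranks 502, 551 and 853 and GATA3 2773, 153 and 3809. Both stood above the TAL1 start in every library. CD2, CD3E and CD3G were among the 12 (54.5%) with no start peak. Of 22 genes of other tissues 6 (27.3%) were open, led by VIL1, EPCAM, APOA1 and COL1A1, at places 15684 to 26386, and 9 (40.9%), including CDH1, CDH5, KRT14 and KRT5, had no start peak. The APOA1 region reached its start window through a peak of replicate 3 alone, at rank 27949.

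The open share of genes differed between chromosomes. It was lowest on chromosome 17, at 36.2%, followed by chromosome 22 at 37.1%, 21 at 42.5%, 20 at 42.8% and 19 at 45.2%, and highest on chromosome 2 at 64.2%. Over the 23 chromosomes the Spearman correlation of this share was −0.715 with the number of coding genes per Mb and −0.628 with GC content, as descriptions of properties that chromosomes have in common. Regions per Mb ran from 6.84 on chromosome 13 to 16.6 on chromosome 1, with 11.8 over all. The densest window of 1 Mb, on chromosome 7 from 142 Mb, had 48 regions. It overlapped 15 coding genes, of which the Kell blood group gene KEL is 1. Windows on chromosome 7 from 143 Mb and on chromosome 22 from 22 Mb had 47 each, and the median window with any region had 11. Why these windows were dense was not tested.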

How the data were processed

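Each library has 1 deposited list of peaks in narrowPeak form, called per library. Per the submitters' processing notes, cutadapt, Bowtie2 2.2.9, Picard, MACS2 2.1.0 and the build hg19 (GRCh37) were used. The deposited fold enrichment of each peak is a linear ratio, and the p and q values are deposited as −log10. Other deposited columns give summit offsets, of which the number of summits was used. Most peaks are 500 bp windows, and 17.5% to 18.8% join several, or 43.8% to 50.1% of the 50000 strongest; a joined peak carries the mean over its windows. A shift for the Tn5 offset is not given in the sources used here.

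Regions were built in Python 3.11.15 with pandas 2.3.3 and annotated with GENCODE release 44 mapped to GRCh37 (78532 coding starts, 19756 genes). Merging, motif and repeat searches were tested on simulated data. With 1 group and no counts no test was made; depth is unknown, and values are given per library or as mean ± SD. Genes named are the 15 strongest, 10 strongest distal and 10 widest regions, the markers GATA1, TAL1 and HBG1, and per list the strongest 4 open genes and the first 4, by alphabet, without a start peak; exceptions are stated. Members and lists were chosen with earlier results of these data known. Some items that this rule selects are not reported here.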

Additional observations from a re-analysis of the deposited data

How the results depend on the processing

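No paired analysis was possible because only 1 group was described. Counts below are of genes open at a start unless said otherwise. A value was called moved where it changed by more than the SD between libraries or, for a count, by over 1.5 times. For the promoter share this SD was 0.00173, since the same shared regions were placed by the peak of each library. Every alternative promoter share of all regions was therefore called moved. For the 1000 strongest it was 1.48, and for the median width the SD of the mean peak width, 24.5 bp, was used. Of 169 alternative values 117 did not move. With 20000 in place of 50000 peaks per list there were 12226 regions, of which 40% were promoters, a median width of 950 bp and 5541 open genes; the lists had 2 erythroid factors, 1 globin gene, 15 membrane, haem and iron genes, 3 megakaryocytic, 1 myeloid, 2 progenitor, 4 lymphoid, 0 other tissue and 8 housekeeping genes. With 100000 peaks there were 56648 regions, 21.5% promoters and a median width of 784 bp, with 10 erythroid factors, 9 globin and 8 myeloid genes. Of all 19756 coding genes 12476 were then open. The full lists gave 113034 regions, 13.2% promoters and 753 bp, with 11 erythroid factors and 9 globin, 10 megakaryocytic, 12 myeloid and 11 progenitor genes. With these lists 14085 of all coding genes were open. Ranking by fold enrichment gave promoter shares of 27.8% for all and 15% for the 1000 strongest regions, and 816 bp. A −log10 q of at least 5 gave 33.2%, 917 bp and 3 other tissue genes, beside 8965 of all coding genes. An overlap of 250 bp gave 28.9%. Regions in at least 2 libraries gave 23.3%, 746 bp and 9 erythroid factors, beside 11602 of all coding genes. Start windows of 500 bp and 2.5 kb gave promoter shares of 27.4% and 32%. The first gave 3 other tissue genes, beside 10207 of all coding genes, and the second 42.2% of the 1000 strongest. Starts of every biotype gave 37.9%, and 48.9% of the 1000 strongest, and the region edge in place of the midpoint gave 29.8%. Leaving out each replicate in turn gave promoter shares of 24.5% to 28%, 36.7% to 39.1% of the 1000 strongest, median widths of 636 to 800 bp and 5 to 8 erythroid factors; the extremes 24.5%, 36.7%, 636 bp and 8 came without replicate 3. The counts of all 9 gene lists thus moved when the list was ended at 20000 peaks. With the full lists those of the erythroid factor, globin, megakaryocytic, myeloid and progenitor lists moved. Motifs at least 2 times the background in every library numbered 7 of 15 at distal and 7 at promoter windows, and 6 and 6 with 250 bp to each side, where AP-1 at distal (1.56 times) and SPI1 at promoter windows (1.63 times) dropped out. Read depth is not known, so for a missing peak low depth and closed chromatin cannot be told apart.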
